A study of Rattus norvegicus with 24 samples.

Results

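The pituitary gland of male Sprague-Dawley rats was set against 5 other tissues of the same animals. Of the 24 arrays of the series, 4 carried pituitary RNA, 1 at each age of 4, 10, 18 and 24 months, and they were taken by their tissue label. The other 20 carried hypothalamus, spleen lymphocyte, liver, kidney and bone RNA, with 4 arrays per tissue at the same ages. No treatment or transgene was named for any group, and each array held equal amounts of RNA pooled from 10 rats, so the ages served as the replicates of a tissue and the spread between single rats was not measured. The label names the pituitary as a whole and gives no lobe.

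The pituitary links the brain to the endocrine glands. In its anterior lobe, somatotropes make growth hormone, lactotropes prolactin, thyrotropes thyrotropin, gonadotropes the gonadotropins and corticotropes the precursor of corticotropin, while melanotropes of the intermediate lobe cleave that same precursor into melanocyte-stimulating hormone. Releasing and inhibiting hormones of the hypothalamus reach these cells through portal vessels and act on G protein-coupled receptors, and hormones of the target glands feed back on both levels. Peptide hormones are folded in the endoplasmic reticulum, cleaved from larger precursors, packed with granins into dense granules and released when calcium enters the cell. The posterior lobe holds axon endings of hypothalamic neurons among glial pituicytes.

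Each value is an array signal, a linear measure of brightness that the authors scaled to 500 on average per array, and levels of different genes cannot be set against each other on this scale. Signals were raised to a floor of 100 and placed on the log2 scale, where a difference of 1 is a 2-fold difference. Of the 10411 genes named by the array, 9682 reached 100 on at least 4 arrays and were tested, 6 of them through the pituitary arrays alone. A gene was called higher or lower at a 2-fold difference and a limma adjusted p below 0.05. Where another tissue lay below 100 on all its arrays, or the pituitary did for a lower gene, the size of the difference is a lower bound and is given as "at least". In RNA of whole tissue, fewer cells of a type and less RNA per cell cannot be told apart.

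The 4 pituitary arrays were alike. Their median signals over genes ran from 273 to 282, against 213 to 309 in the other tissues, and over genes with a mean of at least 200 the median SD across ages was 0.20 on the log2 scale (n = 4), below the 0.23 to 0.29 of the other tissues. The log2 ratio of 3′ to 5′ control probe sets, which reflects RNA integrity, was 1.98 to 2.42 for beta-actin in pituitary. For the other tissues it ran from 0.48 (bone, 10 months) to 3.74 (spleen lymphocyte, 4 months). For Gapdh it was 0.12 to 0.70 in pituitary and up to 2.40 in spleen lymphocyte. The part of these ratios in the tissue differences was not tested. Pairs of pituitary arrays correlated at r = 0.964 to 0.977 across genes. Pituitary with hypothalamus gave a median r of 0.833, and the medians were 0.706 with kidney, 0.695 with spleen lymphocyte, 0.690 with bone and 0.598 with liver. These values describe arrays that share their probes, and genes are not independent replicates.

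The tissue label was checked against the markers of the gland's cell types. The defining hormones of somatotropes, lactotropes, thyrotropes, gonadotropes and corticotropes all read above 100 on each of the 4 pituitary arrays and above all 20 other arrays. Esr1, the estrogen receptor of lactotropes, and Nr5a1, a gonadotrope transcription factor, stayed below 100 in the pituitary. Folliculostellate and stem cell markers summed to 4282 to 5146 in pituitary, below the 12610 to 16632 of hypothalamus, where S100b alone read 11350 to 15240. Aldh1a1 (2270 to 2864), Anxa1 (713 to 999) and Cdh1 (155.5 to 374) were above hypothalamus (at most 952, 532.5 and 77.6). Kidney for Aldh1a1, bone for Anxa1 and liver for Cdh1 read higher still, and Sox2 overlapped with hypothalamus. Pituicyte and posterior lobe markers summed to 3943 to 5442 against 8352 to 11544, and neither sum set the pituitary apart. Of the pituicyte list, Gfap and Vim were below hypothalamus, and Slc1a3 and Rax overlapped with it. Scn7a (2637 to 4229) also overlapped with hypothalamus (903 to 2798) but was above all arrays outside the brain. Of the markers of brain cells, the summed signal of 5 oligodendrocyte genes was 1284 to 1465 in pituitary against 23013 to 28995 in hypothalamus, and that of 5 astrocyte genes was 1509 to 1755 against 16999 to 22263. Of 12 hypothalamic peptide genes, 6 read at least 100 on all 4 pituitary arrays, namely Cartpt (406 to 2952), Gal (593 to 1022), Npy (516 to 785), Pmch (202 to 248), Avp (110 to 428) and Oxt (139 to 537), each below its range in hypothalamus, and Trh, Sst, Crh and Ghrh were below 100 on all 4. The pituitary ranges of all 6 overlapped with tissues outside the brain. Avp reached 295 in bone, Oxt 198 in kidney, Gal 894 in bone, and Cartpt 420 and Pmch 327 in liver. Npy overlapped with liver (440 to 603) and was below spleen lymphocyte (2058 to 4762) and bone (1422 to 4058). The list summed to 2864 to 5778 in pituitary against 35563 to 47542 in hypothalamus. Hepatocyte, kidney tubule, bone cell, neutrophil and T and B lymphocyte markers summed to at most 852 per list in pituitary. Lists of cell types found in many tissues summed to 2477 to 4215 for fibroblasts, 2136 to 2580 for macrophages and 1094 to 1682 for endothelium. Sums of lists with different genes cannot be ranked against each other, and Dcn (1411 to 2156) gave the largest part of the fibroblast sum. Haemoglobin beta (Hbb) read 9328 to 15161, above the 2769 to 5065 of hypothalamus. The erythroid markers Alas2 (68.4 to 466) and Slc4a1 (142 to 240) overlapped with hypothalamus (56.8 to 153 and 118 to 234). The part of red blood cell RNA in the results below was not tested.

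The hormone genes had the highest median difference of the lists. All 7 that the array measured were higher in the pituitary than in each of the 5 tissues. On none of them did any pituitary array overlap with any of the 20 others, though for Pomc the filter set this in advance. Over all genes tested, 983 (10.2%) were higher than the mean of the other 5 tissues and 146 (1.51%) were higher than each of them. The median difference was 6.57 over the hormone list and 0.06 over all genes. With 726 genes lower than the mean, 57.5% of the calls were higher, and this split depended on scaling: centring each array on its median gave 731 higher and 941 lower (43.7% higher), with a median of all genes of -0.10, and quantile normalization gave 902 and 887 (50.4%). All 7 hormone genes remained higher than each tissue under both.

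Gh1, which encodes growth hormone and drives the liver's output of insulin-like growth factor, gave signals of 32493, 48276, 35019 and 37626 at 4, 10, 18 and 24 months, against 42.5 to 196 on the other arrays. Its difference from the mean of the other tissues was 8.24 ± 0.18 (SE), with a limma adjusted p of 2.33e-21. Of the other 20 arrays, 10 lay below the floor of 100, so the size of this difference rests on the floor. The 10-month array read highest, and the SD over the ages was 0.25. Prl, the hormone of lactation, read 31107, 34786, 36507 and 28302, against 17.6 to 254 elsewhere, and its difference was at least 8.24 ± 0.16. Its 4 pituitary arrays lay within an SD of 0.16.

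Tshb, the subunit that makes thyrotropin specific for the thyroid, had the steadiest level of the hormone genes, with 21698, 22615, 25730 and 23576 and an SD of 0.11. Outside the brain it stayed between 53.5 and 178, and its difference from the mean was 7.25 ± 0.16. Cga encodes the alpha subunit that thyrotropin shares with the gonadotropins. Cga read 28950, 35872, 31456 and 32502 in pituitary, where its difference from the mean was 6.57 ± 0.19.

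Both of these genes were also well above the floor in hypothalamus. The hypothalamus arrays gave 370, 795, 681 and 531 for Tshb and 2322, 2855, 4080 and 4647 for Cga from the youngest to the oldest rats, all above every array of the 4 tissues outside the brain, whose highest signals were 178 for Tshb and 364 for Cga. Gh1 and Prl did not exceed 146.5 and 123 in hypothalamus. Pituitary still exceeded hypothalamus 40.9-fold for Tshb (log2 5.35 ± 0.20) and 9.59-fold for Cga (3.26 ± 0.25). The source of this hypothalamic signal was not tested.

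The gonadotropin subunits differed in how they varied across the arrays. Lhb, the beta subunit of luteinizing hormone, read 9397, 9095, 8829 and 6927, against 173 to 767 elsewhere, with a difference of 4.68 ± 0.20. Fshb, the beta subunit of follicle-stimulating hormone, read 8082, 6664, 4947 and 5939, against 113 to 404 elsewhere, with a difference of 4.78 ± 0.23. The lowest Lhb value was at 24 months and the lowest Fshb value at 18 months, each on 1 array of pooled RNA. A second probe set for Fshb gave a difference of 5.63.

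Pomc, the precursor of corticotropin, melanocyte-stimulating hormone and beta-endorphin, was the hormone gene with the lowest bound. Its single probe set read 600.2, 618, 699 and 345 in pituitary and at most 35.55 on the other arrays, a difference of at least 2.45 ± 0.12. Since all 20 lay below the floor, this value has no rank among the hormone genes. Pomc passed the filter through the pituitary arrays alone, so its lack of overlap was set by the filter. The hypothalamus, which also holds Pomc neurons, gave 8.65 to 17.0 with this probe set.

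**Figure D1:**
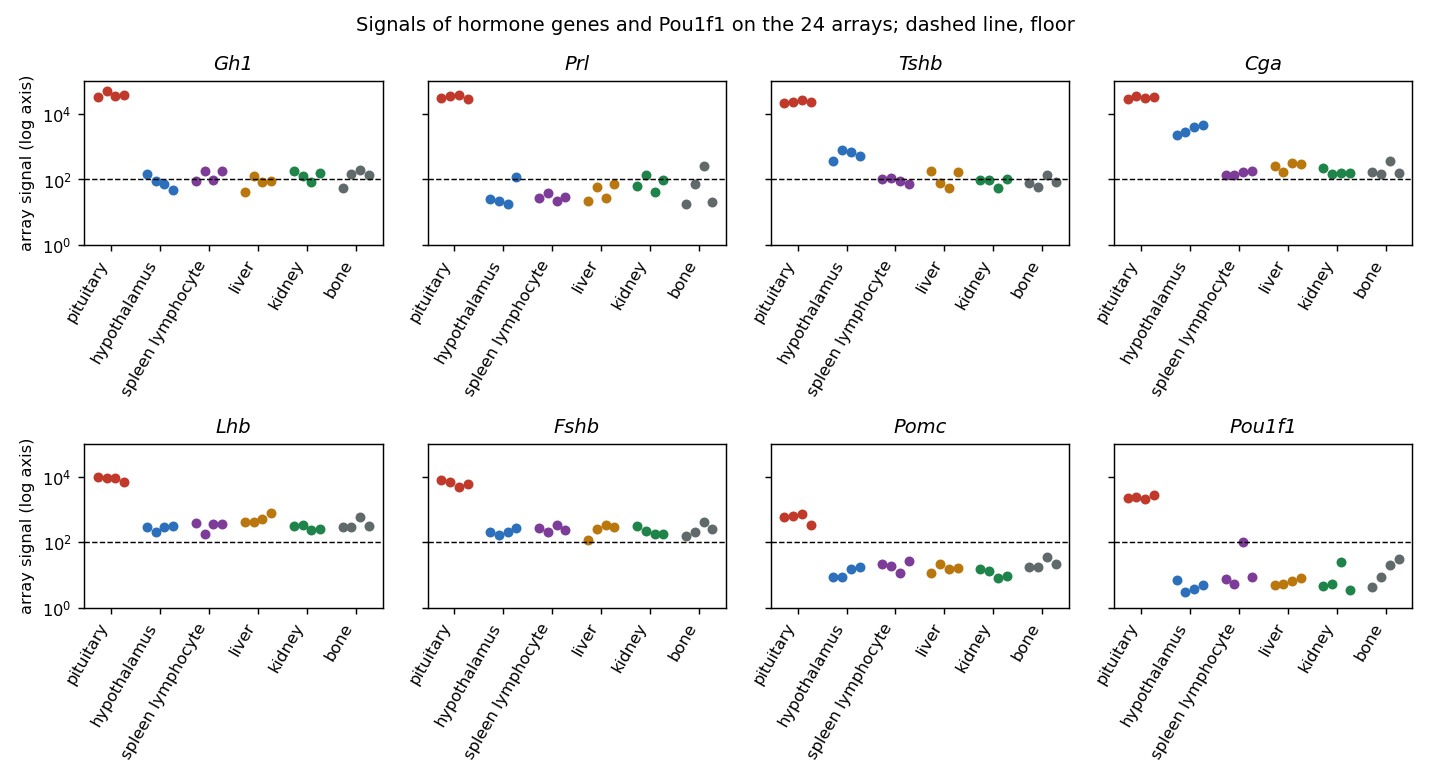
Array signal on a log axis for 7 hormone genes and the transcription factor Pou1f1, 1 point per array, with the 4 ages of a tissue from left to right and a dashed line at the floor of 100. Pituitary arrays are in red and lie above all others in every panel, and hypothalamus is above the remaining tissues only for Tshb (370 to 795) and Cga (2322 to 4647).

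Promoter sequences were taken for the hormone genes, since these genes were high together in 1 tissue. RefSeq sequence for the GRCr8 build was at hand for 5 of the 7, Prl, Tshb, Cga, Lhb and Pomc. The windows hold the 250 bases before the annotated start, written 5′ to 3′ on the gene's strand, at chr17:38298218-38298467 (minus strand) for Prl, chr2:192918055-192918304 (minus) for Tshb, chr5:54283090-54283339 (plus) for Cga, chr1:105037207-105037456 (plus, the first of 2 annotated starts) for Lhb and chr6:32659103-32659352 (plus) for Pomc. Capitals mark matches on either strand to ATGNATA, the core bound by Pou1f1, to TGACCTTG, bound by Nr5a1, and to the TATA box TATAAA.
Prl: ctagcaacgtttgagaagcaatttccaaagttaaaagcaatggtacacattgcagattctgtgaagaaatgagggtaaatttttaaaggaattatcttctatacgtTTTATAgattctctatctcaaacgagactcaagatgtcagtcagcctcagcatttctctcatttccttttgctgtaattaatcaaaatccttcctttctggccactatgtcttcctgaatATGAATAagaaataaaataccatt
Tshb: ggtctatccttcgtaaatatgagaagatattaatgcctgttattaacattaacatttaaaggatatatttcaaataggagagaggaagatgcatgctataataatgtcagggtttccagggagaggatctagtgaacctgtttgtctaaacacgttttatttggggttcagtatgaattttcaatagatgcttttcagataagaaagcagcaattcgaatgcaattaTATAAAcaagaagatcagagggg
Cga: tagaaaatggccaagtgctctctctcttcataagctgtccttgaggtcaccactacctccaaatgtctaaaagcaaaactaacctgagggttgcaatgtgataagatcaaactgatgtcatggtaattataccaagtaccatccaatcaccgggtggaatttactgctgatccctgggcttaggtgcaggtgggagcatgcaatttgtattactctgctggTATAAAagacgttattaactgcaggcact
Lhb: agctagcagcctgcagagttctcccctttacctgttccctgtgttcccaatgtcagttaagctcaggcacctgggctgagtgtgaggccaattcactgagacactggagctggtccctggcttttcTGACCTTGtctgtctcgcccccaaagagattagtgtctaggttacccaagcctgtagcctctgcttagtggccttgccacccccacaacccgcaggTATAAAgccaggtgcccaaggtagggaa
Pomc: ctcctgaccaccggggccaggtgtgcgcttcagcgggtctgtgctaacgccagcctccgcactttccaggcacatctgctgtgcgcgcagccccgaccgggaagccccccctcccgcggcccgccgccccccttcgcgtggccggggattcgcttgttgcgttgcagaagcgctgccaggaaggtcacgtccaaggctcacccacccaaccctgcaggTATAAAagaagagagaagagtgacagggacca
Prl held ATGAATA at positions -24 to -18, counted back from the start, and TATAAA on the reverse strand at -144 to -139. In Lhb, TGACCTTG lay at -124 to -117. A forward TATAAA lay at -23 to -18 in Tshb, -29 to -24 in Cga, -28 to -23 in Lhb and -32 to -27 in Pomc, and no printed matches overlapped. Of the 33469 windows of all genes, 8.73% held ATGNATA, 1.33% TGACCTTG and 12.9% TATAAA. Of the 8035 tested genes with a window, the shares were 4.03%, 0.896% and 8.28%, and of the 116 genes with a window among the 146 higher than each tissue they were 2.59%, 2.59% and 12.9%. A match describes letters only.

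Transcription factors of pituitary lineages followed the hormones. Of 13 tested, 10 were higher than the mean of the other tissues (76.9%, beside 10.2% of all genes). Of the 13, 6 were higher than each of the tissues, and the median difference was 1.78. Pou1f1, which somatotropes, lactotropes and thyrotropes need to form, read 2273, 2445, 2130 and 2680 in pituitary and at most 102 on any other array, with 3.08 to 7.17 in hypothalamus. Its difference was at least 4.57 ± 0.08, with a limma adjusted p of 2.12e-23, and a second probe set gave 4.12. The other factors of the list had smaller differences on the floored scale. Those of Pitx1 and Tbx19 are also lower bounds, so they have no rank against Pou1f1.

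Pitx1, a homeodomain factor of early pituitary cells, read 576, 538, 470.1 and 545 and no more than 180.4 elsewhere. Tbx19, which corticotropes and melanotropes need to switch on Pomc, read 962, 639, 691 and 607 against at most 398, and Msx1, a homeodomain repressor, read 706, 989, 858 and 814 against at most 413. These 3 did not overlap with any other array, and their differences were at least 2.25, at least 2.05 and 2.36. Tbx19 was no longer higher than each tissue when arrays were centred on their medians.

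Isl1 and Neurod1 were also higher than each tissue but overlapped with hypothalamus. Isl1, a LIM factor of thyrotropes and gonadotropes, read 499, 514, 523 and 329, and the hypothalamus reached 394. Neurod1, a corticotrope factor, read 234, 264, 482 and 314 against at most 248 in hypothalamus. Without the 4-month hypothalamus array for Isl1 (difference from the mean 1.75) or the 18-month pituitary array for Neurod1 (1.34), the call against every tissue was lost.

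Factors that many cells switch on by hormone signals were higher than 4 of the 5 tissues. Nr4a1 (Nur77), which corticotropin-releasing hormone induces in corticotropes, read 3329, 2825, 2364 and 2726, with a difference of 2.64 ± 0.14 and overlap with spleen lymphocyte, where signals ran from 2395 to 2951. Nr4a2 and Egr1, the latter needed for Lhb transcription, had differences of 1.67 and 1.44. Egr1 was lower in pituitary than in spleen lymphocyte. Gata2, shared by thyrotropes and gonadotropes, read 1015, 1423, 1136 and 1256, above the highest other signal of 773. Sox2, Sox3 and Otx2, factors of progenitors and early head development, were not called, with differences of -0.09, -0.17 and -0.21.

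Receptors that read hypothalamic signals were the next group. Of 26 receptors for releasing hormones and feedback hormones, 9 were higher than the mean of the other tissues (34.6%, beside 10.2% of all genes). The 2 lower ones were 7.69%, near the 7.5% of all genes, and the median difference was 0.25. Drd2, through which dopamine holds back prolactin release, read 1867, 2445, 2335 and 2495 against at most 344 elsewhere, and was higher by at least 3.99 ± 0.18. Avpr1b, the vasopressin receptor of corticotropes, read 467, 348, 469 and 478 against at most 203, a difference of at least 1.95 ± 0.16. Neither overlapped with another array.

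Trhr, the receptor for thyrotropin-releasing hormone, read 735, 1821, 1955 and 1439, and the 4-month array overlapped with hypothalamus (507 to 908). Its difference from the mean was 2.73 ± 0.26, but against hypothalamus it was 1.09 ± 0.34 (limma adjusted p = 0.0134). That call was lost without the 4-month hypothalamus, the 10-month pituitary or the 18-month pituitary array, with differences from the mean of 2.70, 2.60 and 2.57, and also when arrays were centred on their medians. The mean over all Trhr probe sets gave 0.89, below the 2-fold limit.

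Gnrhr, through which gonadotropin-releasing hormone drives gonadotropes, fell in order of age from 545 through 273 and 255 to 171. The highest other signal was 176, so the 24-month array overlapped with hypothalamus. Its difference was 1.34 ± 0.20. Without the 4-month pituitary array it was 1.03, and Gnrhr was no longer higher than each tissue. A second probe set read 731 to 1851 in pituitary and reached 100 on no other array, a difference of 3.53.

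Ghrhr, the receptor for growth hormone-releasing hormone, read 1189, 523, 908 and 779, against 175 to 327 in hypothalamus and up to 708 outside the brain. It was higher than 3 of the 5 tissues, with a difference from the mean of 1.12 ± 0.22, and without the 4-month pituitary array the difference was 0.94, below the 2-fold limit, as was the 0.93 under median centring. Its second probe set gave 1.68. The ghrelin receptor Ghsr and the somatostatin receptors Sstr1, Sstr2, Sstr3 and Sstr5 were not called against the mean, with differences of 0.07 to 0.31, and Sstr1 was lower than in hypothalamus, by -1.51.

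Nuclear receptors for thyroid hormone, which shut off Tshb, were both higher than the mean. Thrb read 243, 327, 211 and 288 against at most 198 elsewhere, with a difference of at least 1.21, and Thra differed by 1.29. Their second probe sets gave 0.03 and 0.75, and the mean over all probe sets gave 0.62 for Thrb, below the 2-fold limit. Vipr2, a receptor for vasoactive intestinal peptide, differed by at least 1.14. It fell below the 2-fold limit without the 24-month pituitary array (0.92) and under quantile normalization or median centring (0.99 in both). Gabbr1, a GABA-B receptor subunit, differed by 1.04 from the mean yet differed from hypothalamus by -1.64, and its second probe set gave -0.09. The glucocorticoid receptor Nr3c1 differed by -0.15 and was not called.

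The 2 lower receptors were Ghr, the growth hormone receptor, and Prlr, the prolactin receptor. Ghr stayed between 5.07 and 47.3 in pituitary and reached 6587 in other tissues, a difference of at least -1.52 ± 0.10. It was lower than 2 of the 5 tissues. A second probe set gave -0.47, and with the mean over both probe sets Ghr was not called. Prlr read 137 to 169 on the probe set used and differed by -1.21, but its other probe sets gave 0.17 and 1.97, the last with 665 to 1127 in pituitary, so the direction for Prlr depends on the probes. On the probe set used, the difference without kidney was -0.75. With the mean over all probe sets, 6 receptors of the list were higher than the mean of the tissues and 0 were lower.

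Proteins that process and store hormones were the next list. Of 19 tested, 13 were higher than the mean of the other tissues (68.4%, beside 10.2% of all genes). Only 1 was lower (5.26%, beside 7.5%), and the median difference was 2.45. Against the 4 tissues outside the brain, 11 of the 19 were higher than each, and of those 4 were also higher than hypothalamus and 7 were not called against it. Over all genes, 545 were higher than each of these 4 tissues, of which 26.8% were higher than hypothalamus and 56.5% were not called. For the hormones, these counts were 7 of 7, with all 7 higher than hypothalamus as well.

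The granins Chgb and Chga, acidic proteins that condense the granule core, were above hypothalamus. Chgb read 11162, 13399, 12933 and 14201 in pituitary, 2068 to 2391 in hypothalamus and at most 119 elsewhere. It was higher than the mean by at least 6.09 ± 0.09 and than hypothalamus by 2.52 ± 0.11. Chga read 5803, 3039, 3136 and 4207 against 955 to 1089 in hypothalamus and no more than 36.8 elsewhere, and it was higher than hypothalamus by 1.92 ± 0.15.

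Other granule proteins were high in both tissues of the axis. Scg2, a granin that is cleaved to secretoneurin, read 10491, 11350, 10596 and 10200 in pituitary and 5773 to 6471 in hypothalamus, against at most 90.8 elsewhere. The pituitary values were above those of hypothalamus without overlap, but the difference of 0.80 was below the 2-fold limit. The same held for Scg5, the chaperone of the convertase Pcsk2, at 12920, 14358, 13864 and 14947 against 6372 to 8402, and for Scg3, with differences from hypothalamus of 0.92 and 0.75.

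Of the enzymes, Pcsk2, a convertase that trims precursors such as Pomc, read 475, 454, 540.1 and 567 against 91.7 to 316 in hypothalamus and at most 30.5 elsewhere. It was higher than each tissue, a call lost without the 24-month hypothalamus array, where its difference from the mean was 2.07. Pcsk6, a related convertase, read 1956, 1570, 1706 and 1620 and overlapped with the 4-month bone signal of 1653. Its call against each tissue was lost under median centring. Cpe, the carboxypeptidase that follows the convertases, read 18478, 19359, 19893 and 17728 and overlapped with hypothalamus (10783 to 18573), and it was at least 7.56 above liver. Pam, which amidates peptide ends, and Pcsk1n, an inhibitor of Pcsk1, overlapped with hypothalamus in the same way, with differences from the mean of at least 2.69 and of 4.31.

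Vgf, a precursor of neuropeptides, ran the other way. It read 172, 190.0, 388 and 172 in pituitary and 2030 to 3120 in hypothalamus, a difference of -3.41. Nell2, a secreted neural protein, was also lower in pituitary than in hypothalamus, with a difference of -2.14. Qpct, the enzyme that closes amino-terminal glutamine into a ring, read 53.3, 5.01, 3.77 and 52.9, against 583 to 889 in hypothalamus, and was the only member lower than the mean, by at least -1.19. Without the hypothalamus that value was -0.79 and no longer reached the limit.

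**Figure D2:**
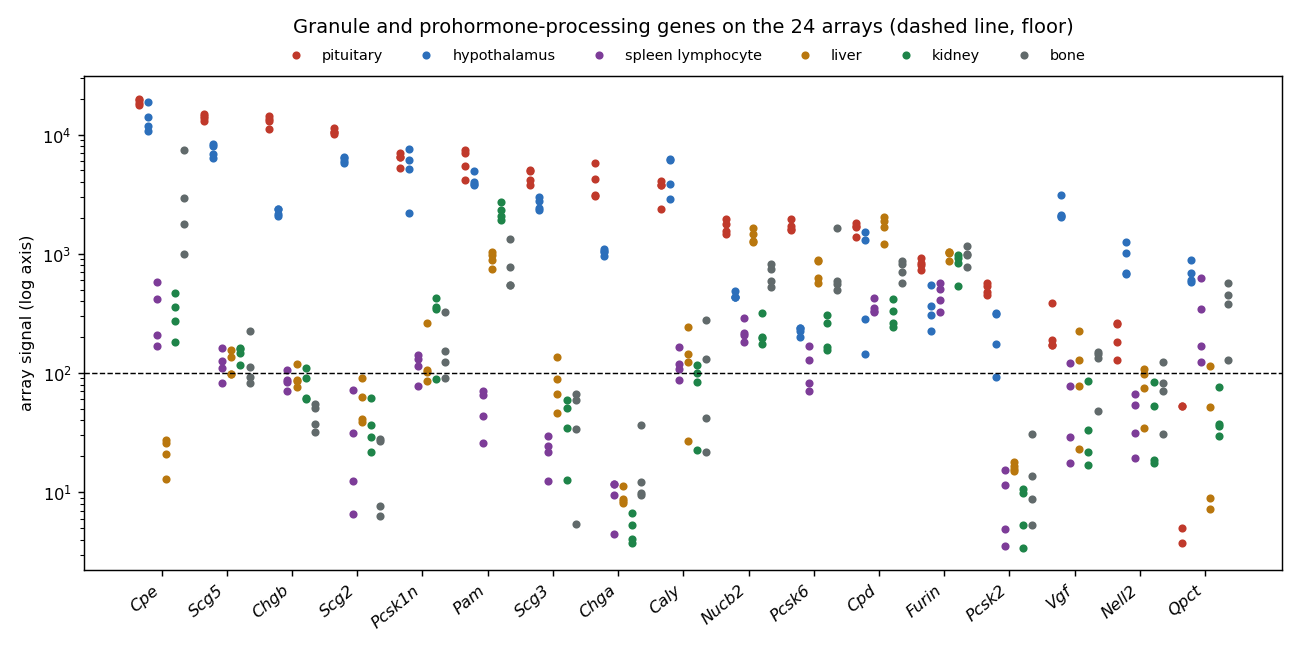
Array signal on a log axis for the tested granule and prohormone-processing genes other than Pcsk4 and Pcsk7, 1 point per array coloured by tissue, with a dashed line at the floor of 100. Chgb and Chga separate pituitary (red) from hypothalamus (blue), Cpe and Pcsk1n do not, and Vgf is higher in hypothalamus, at 2030 to 3120.

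Genes of the release machinery were also tested. Among 23 exocytosis genes, 11 were higher than the mean (47.8%, beside 10.2% of all genes), 0 were lower, and the median difference was 0.93. Only Rph3al, an effector of Rab GTPases on granules and named after its values were seen, was higher than each tissue, with 1134 to 1461 in pituitary and at most 554 elsewhere. Snap25, the membrane SNARE of regulated release, read 6660, 5230, 6912 and 6719 against 9626 to 14711 in hypothalamus and at most 112 outside the brain. The synaptotagmin Syt4 and the GTPase Rab3b, at least 3.89 and 2.44 above the mean, were not called against hypothalamus. A list of 7 neuron markers summed to 7942 to 10191 in pituitary and 18014 to 28572 in hypothalamus, against at most 1505 elsewhere. Snap25 is on this list and gave the largest part of the pituitary sum. Syn1 (610 to 769), Nefl (444 to 1199) and Slc17a6 (394 to 709) also lay above all arrays outside the brain. Nefm, Camk2a (136 to 180) and Gad1 (25 to 167) overlapped with them. The part of neuronal RNA in these results was not tested.

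Of 31 voltage-gated channel genes, 8 were higher than the mean (25.8%, beside 10.2% of all genes) and 0 were lower, with a median of 0.21. Kcnma1, the calcium-activated BK potassium channel, read 793, 853, 810.0 and 811 against at most 330.0 elsewhere. Kcna5 (336 to 453) and Cacna1d, an L-type calcium channel subunit (247 to 402), were likewise higher than each tissue without overlap. Other probe sets gave -0.25 and -0.04 for Kcnma1 and 0.19 and -0.03 for Cacna1d, and with the mean over all probe sets 1 channel gene rather than 3 was higher than each tissue. Of 26 glutamate and GABA receptor genes, 3 were higher (11.5%, near the 10.2% of all genes), with a median of -0.07, and the count was 0 with the mean over all probe sets and 6 with a floor of 50. Gria2, a glutamate receptor subunit, read 471 to 663 in pituitary and 489 to 2906 in hypothalamus.

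Genes that fold and modify secreted proteins in the endoplasmic reticulum came next. Of 49 tested, 14 were higher (28.6%, beside 10.2% of all genes), 0 were lower, and the median was 0.70. Ddost, a subunit of the enzyme that attaches sugar chains, read 4775, 4076, 3595 and 5102 against at most 2039. The chaperone Hyou1 read 1397 to 1600 against at most 1154, a difference from the mean of 1.83, but its second probe set gave 0.38. Under quantile normalization 21 of the 49 were higher and under median centring 11. Of 30 genes of cAMP and G protein signalling, 13 were higher (43.3%) and 1, the phosphodiesterase Pde4b, was lower.

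Gnas, the stimulatory G protein subunit to which the receptor for growth hormone-releasing hormone couples, read 28339, 35933, 33029 and 32336. The hypothalamus gave 12180 to 14838 and the tissues outside the brain 3804 to 11720, so Gnas was higher than each, by 2.14 ± 0.12 against the mean. Its other probe sets gave 4.82 and 2.92. The adenylyl cyclase Adcy6 and the phosphodiesterase Pde10a (the latter named after its values were seen) were the other members higher than each tissue. A second probe set gave 0.42 for Adcy6, against 1.70 for the one used, and 4.12 for Pde10a. The count of 3 members higher than each tissue was 1 under quantile normalization or median centring and 2 with the mean over all probe sets. Crem, a cAMP-responsive factor, was higher than the mean by 2.23, and its other probe sets gave 0.66 and 0.63.

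Imprinted genes, which are read from 1 parental copy and often act in fetal growth, were a further group. Of 17 tested, 8 were higher than the mean (47.1%, beside 10.2% of all genes), 5 were higher than each tissue and 1, the transporter Slc22a18, was lower. Dlk1, a membrane protein of the Notch ligand family, read 8455, 3729, 4907 and 3968 against at most 523 elsewhere, with a difference of 4.56 ± 0.24. Its 4-month array was the highest. Meg3, a noncoding RNA of the same imprinted region as Dlk1, was steadier at 9220, 8159, 9161 and 9321 against 2873 to 3770 in hypothalamus and at most 364 elsewhere.

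Mest, a hydrolase-like protein, read 2851, 3951, 2953 and 3586 in pituitary and between 255 and 639 in hypothalamus. It reached at most 34.2 in spleen lymphocyte, liver and kidney, and its difference was at least 4.40. Plagl1, a zinc finger factor, read 2770, 2682, 2757 and 2331 against at most 1277 and was higher by at least 3.69. Gnas is the fifth imprinted gene higher than each tissue. Nnat and Ndn were higher than the mean by 2.72 and 2.29, above 4 tissues and below 1.

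**Figure D3:**
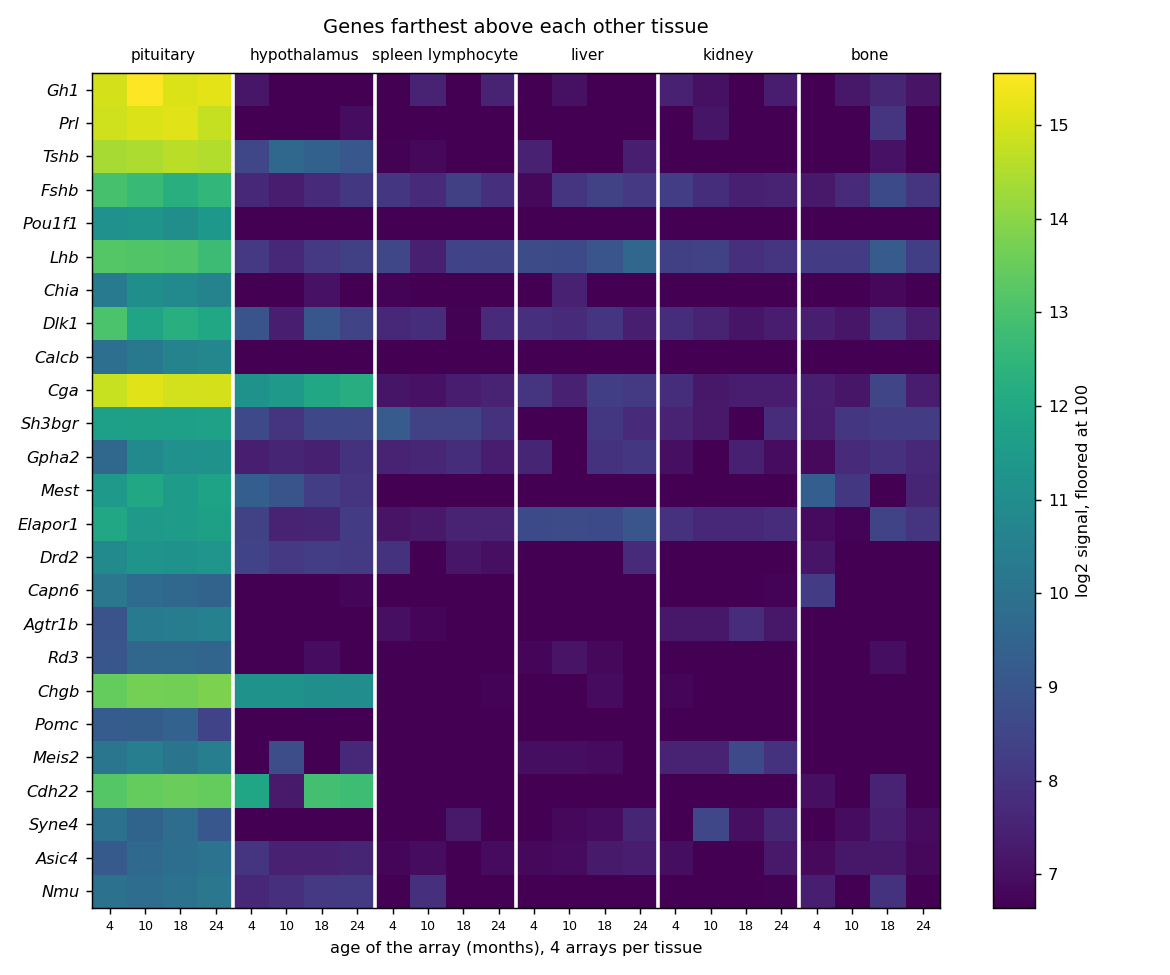
Heat map of log2 signal, floored at 100, for the 25 genes with the largest smallest difference among those higher in pituitary than in each tissue, over 24 arrays ordered by tissue and age. The 4 pituitary columns are the brightest for each gene, and Cga, Chgb, Tshb and Cdh22 also show signal in hypothalamus, where the 10-month array of Cdh22 reads 155.

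Several genes far above all tissues were outside the classical lists. Calcb, a calcitonin gene-related peptide, read 965, 1208, 1574 and 1759 and at most 92.4 elsewhere, a difference of at least 3.74 ± 0.11. Its 4 values rose in order of age. Gpha2, the alpha subunit of the thyrostimulin hormone, read 779, 1923, 2252 and 2382 against at most 275, with a difference of 3.27, and Nmu, the peptide neuromedin U, read 1039, 916, 1004 and 1165 against at most 283.

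Chia, a chitinase, read 1244, 2187, 1862 and 1579 and no more than 174 on other arrays. Agtr1b, 1 of the pair of angiotensin type 1 receptors of rodents, read 492, 1314, 1385 and 1501 against at most 220, where kidney was the next tissue. Inhbb, the activin B subunit that drives Fshb, read 220, 293, 332 and 276 and at most 93.0 elsewhere. None of these genes overlapped with another array. For Inhbb, and for Calcb above, this was set by the filter, which both passed through the pituitary arrays alone. Of the 23 local peptides and growth factors tested, among them Nmu, Inhbb and Dlk1, 7 were higher than the mean. This was 30.4%, beside 10.2% of all genes, and 1, Npy, was lower. Their median of 0.04 became -0.12 under quantile normalization and median centring. Penk, the precursor of enkephalins, read 2805, 2219, 2583 and 3147, overlapping with hypothalamus (2540 to 3785) and above the 576 reached elsewhere.

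Sh3bgr, Elapor1, Capn6, Rd3, Meis2, Syne4 and Asic4 filled the rest of the 25 genes, with smallest differences over the 5 tissues of 2.07 to 3.23. Sh3bgr was nearly constant at 3282, 3322, 3278 and 3450 against at most 592. Cdh22, a cadherin, read 9395, 11207, 11807 and 11127, and the hypothalamus gave 3808, 155, 7587 and 7025, so its call against hypothalamus rested on the 10-month hypothalamus array. Without it, Cdh22 was 5.52 above the mean but no longer higher than each tissue.

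Another 4 genes higher than each tissue were picked after their values were seen. Resp18, a granule protein of endocrine cells, read 17804 to 25845 in pituitary, 7797 to 11177 in hypothalamus and up to 1345 elsewhere. Nr3c2, the mineralocorticoid receptor, read 644 to 851 against at most 387, and Rasd1, a small G protein induced by glucocorticoids, read 1145 to 1389 against at most 499. Serpini1 (neuroserpin), a protease inhibitor, read 2808 to 3733 against at most 926.

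Across the 146 genes higher than each tissue, 122 had all 4 pituitary arrays above all 20 others, as did 396 (4.09%) of all genes tested. Their median smallest difference was 1.31, and 27 exceeded each tissue at least 4-fold. Most of them varied little with age, with a median SD of 0.21, and 9 had an SD above 0.5. The largest SD belonged to Reg3b, a secreted lectin, at 124, 272, 203 and 1345. Without the 24-month pituitary array, Reg3b differed by 0.88 and was not called. Tbc1d31, a centrosome protein, alternated between 903, 360, 910 and 498, and was not higher than each tissue without the 18-month hypothalamus array (1.63 against the mean).

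The same rule gave fewer genes for pituitary than for other tissues, with 313 for bone, 333 for spleen lymphocyte, 348 for kidney, 366 for hypothalamus and 400 for liver. Above each of the 4 tissues outside the brain, pituitary had 545 genes, of which 146 were also higher than hypothalamus, 308 were not called against it and 91 were lower than hypothalamus. Against the single tissues, 1602 genes (16.5%) differed from hypothalamus, 2553 (26.4%) from kidney, 2575 (26.6%) from bone, 2920 (30.2%) from spleen lymphocyte and 3163 (32.7%) from liver.

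Many of the largest differences against single tissues in the lower direction were in genes typical of those tissues. Those against bone were in neutrophil genes. Against hypothalamus, Mbp, the myelin basic protein, read 162, 123, 130 and 167 in pituitary and 13761 to 19210 in hypothalamus, a difference of -6.82 ± 0.27. Pmch, the precursor of melanin-concentrating hormone, differed by -5.82 and Itih3, a serum inhibitor heavy chain, by at least -6.83. Against spleen lymphocyte, the chemokine receptor Cxcr4, the GTPase Rac2 and the chemokine Ccl5 differed by -6.75, -6.57 and -6.33. Ccl5 read 156 to 356 in pituitary.

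Against liver, albumin (Alb), the fatty acid carrier Fabp1 and the apolipoprotein Apoa2 differed by -9.19, at least -8.73 and at least -8.51. Against kidney, the androgen-regulated protein Kap, the oxidase Hao2 and uromodulin (Umod) were below 100 on all pituitary arrays and differed by at least -7.75, -7.35 and -7.27. Against bone, the neutrophil genes S100a9, Defa5 and Np4 differed by at least -7.94, -7.38 and -7.19. In the other direction, Gh1 and Prl were among the 3 largest differences against every tissue and Tshb against all but liver, where Cpe took its place.

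Lists of liver functions were lower than the mean of the other tissues. Of 25 drug and steroid cytochromes P450, 17 were lower and 0 were higher, with a median of -1.30, and of 22 complement and acute phase genes 16 were lower and 1, A2m, was higher. Over all genes, 726 (7.5%) were lower than the mean. By tissue, 23 of the 25 cytochromes and 18 of the 22 acute phase genes were lower than in liver (92% and 81.8%, beside 11.5% of all genes). Against hypothalamus, 0 and 2 were lower (0% and 9.09%, beside 7.66%). Of 18 MHC and antigen presentation genes, 2 (11.1%) were lower than the mean and 0 were higher, with a median of -0.73. By tissue, 16 were lower than in spleen lymphocyte (88.9%, beside 12.4% of all genes) and 7 higher than in hypothalamus (38.9%, beside 8.88%).

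Proliferation and matrix genes differed by tissue as well. Of 29 cell cycle genes, 2 were higher than the mean (6.9%, beside 10.2% of all genes) and 3 were lower (10.3%, beside 7.5%). Their median was -0.51, and 5 were lower under quantile normalization or median centring. By tissue, 24 were lower than in bone (82.8%, beside 12.4% of all genes) and 16 lower than in spleen lymphocyte (55.2%, beside 12.4%). Mki67, a marker of dividing cells, read 48.1 to 136 in pituitary and up to 5743 elsewhere. The 2 higher genes were Ccnd2, a cyclin of the first gap phase, by 2.33, and Cdk4, its kinase, by 1.56. Of 41 collagen and matrix genes, 7 were higher than the mean (17.1%, beside 10.2% of all genes) and 1 was lower (2.44%, beside 7.5%). Under quantile normalization 5 were lower, and under median centring 4. By tissue, 24 were higher than in spleen lymphocyte (58.5%, beside 17.7% of all genes) and 23 lower than in bone (56.1%, beside 12.4%). The inhibitor of metalloproteinases Timp1 read 1599, 1677, 1809 and 1450.

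Ribosomal protein, proteasome and oxidative phosphorylation genes were rarely called against the mean of the other tissues. None of 34 ribosomal protein genes and none of 27 proteasome genes was called, with medians of 0.33 and 0.31, and 1 of 40 oxidative phosphorylation genes, Atp5po, was lower, with a median of -0.18. Against single tissues, 12 ribosomal protein genes (35.3%, beside 8.88% of all genes) were higher than in hypothalamus and 10 (29.4%, beside 21.1%) higher than in liver. Against spleen lymphocyte, 13 ribosomal protein genes (38.2%, beside 12.4%) were lower and 9 oxidative phosphorylation genes (22.5%, beside 17.7%) were higher. Of the oxidative phosphorylation genes, 19 (47.5%, beside 11.9%) were lower than in kidney. Cholesterol synthesis had 1 of 18 higher than the mean (5.56%, beside 10.2% of all genes), Sqle, at 577, 568, 414 and 772 in pituitary. By tissue, 11 of the 18 were lower than in liver (61.1%, beside 11.5% of all genes). In the other direction, 5 were higher than in spleen lymphocyte (27.8%, beside 17.7%), 6 than in kidney (33.3%, beside 14.4%) and 7 than in bone (38.9%, beside 14.2%). With quantile normalization 2 ribosomal genes and 1 proteasome gene were called higher, and with median centring 4 oxidative phosphorylation genes were called lower. Thyroid hormone and selenoprotein genes were mixed, with 4 of 18 higher (22.2%, beside 10.2% of all genes) and 6 lower (33.3%, beside 7.5%). Fatty acid oxidation had 5 of 22 lower (22.7%) and 0 higher, and with a floor of 50 it had 4 lower and 2 higher. By tissue, 17 of its genes were lower than in liver (77.3%, beside 11.5%) and 14 than in kidney (63.6%, beside 11.9%). Against hypothalamus, 4 were higher (18.2%, beside 8.88%). Notch and Wnt genes had 1 of 19 in each direction (5.26%, beside 10.2% higher and 7.5% lower over all genes). Myelin had 4 of 9 lower (44.4%, beside 7.5% of all genes), and 8 of 9 against hypothalamus (88.9%, beside 7.66%).

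**Figure D4:**
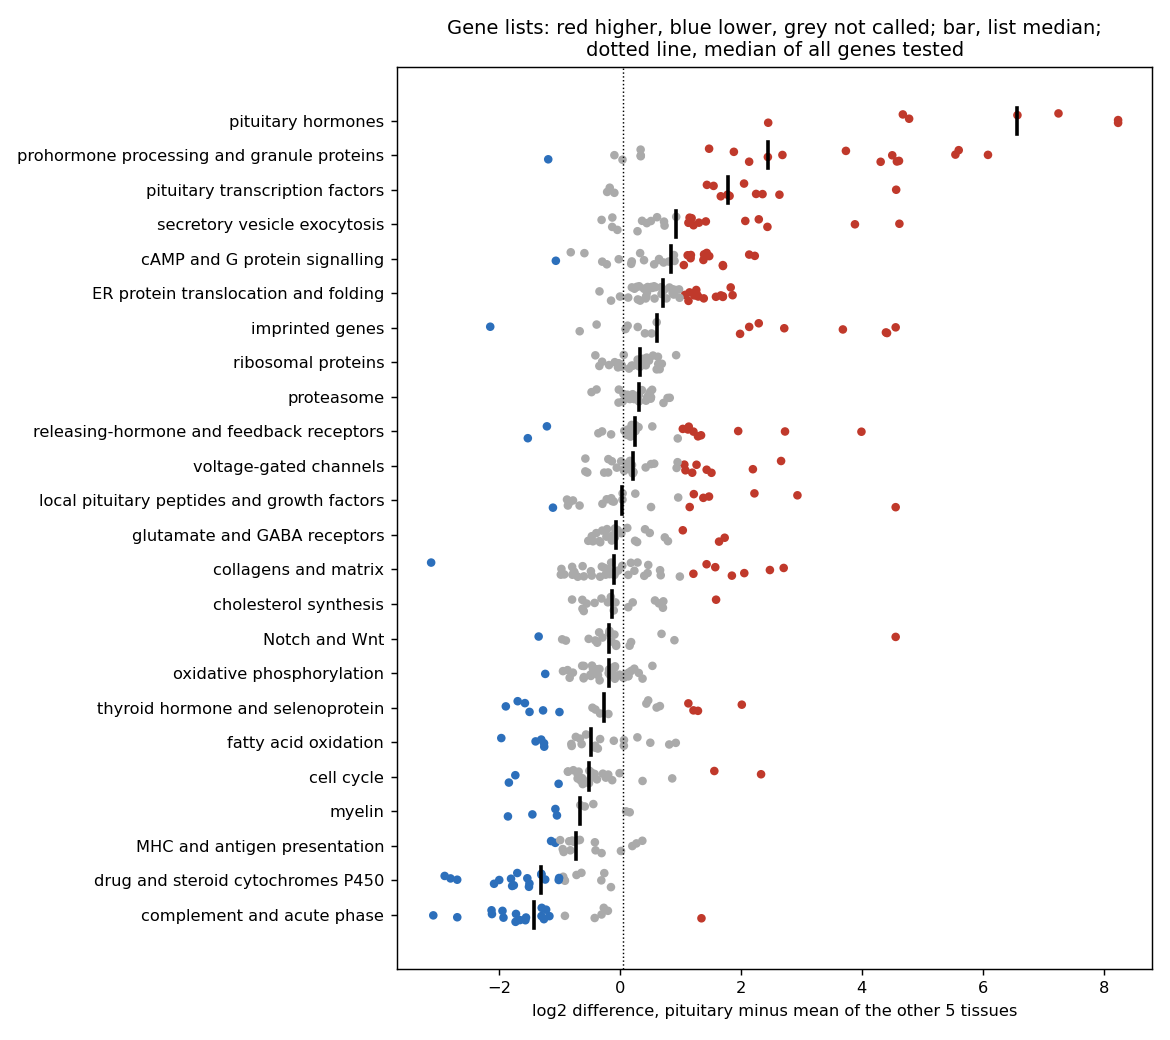
Log2 difference of each tested member of 24 gene lists, pituitary minus the mean of the other 5 tissues, 1 point per gene, red for higher, blue for lower and grey for not called. Black bars are list medians, from 6.57 for hormones to -1.43 for complement and acute phase genes, and the dotted line is the median of all genes at 0.06.

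Few genes were low in pituitary alone. Only 12 (0.124%) were lower than in each of the 5 tissues, and all 12 had their 4 pituitary arrays below all 20 others, as did 59 (0.609%) of all genes tested. Gda, which deaminates guanine, read 151, 159, 298 and 180 against 615 to 3903 elsewhere, with a difference of -3.20 ± 0.21. Fn1 (fibronectin), a matrix protein, read 284, 237, 261 and 356 against 713 to 12179, with a difference of -3.12 ± 0.16. Of the 12 genes, these lay furthest below the mean. With the mean over all probe sets, 6 of the 12 kept the call against each tissue, and Gda (second probe set -1.48), Tfrc, Glul, Nudt4, Cdkn1a and Zbtb18 lost it.

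Genes of iron uptake and nitrogen metabolism were among them. Tfrc, the transferrin receptor, read 524, 584, 732 and 506 against 1277 to 13875, and Glul (glutamine synthetase) read 980, 709, 628 and 688 against 1287 to 7867. Another probe set gave -1.38 for Tfrc, and 2 others gave -1.88 and -1.34 for Glul, against -2.30 and -2.06 for those used. Nudt4, a phosphatase of inositol pyrophosphates, read 781, 989, 958 and 836 against 1336 to 7950.

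Cdkn1a (p21), which halts the cell cycle, read 166, 100.5, 157 and 66.4 against 195 to 1105. Its difference was -1.84 ± 0.26, and the call against each tissue was lost without the 4-month bone array, at -1.76. Fabp5, a fatty acid carrier, read 256, 360, 364 and 261, and lost the same call without the 4-month pituitary array (-1.71) or the 24-month kidney array (-1.76). For Zbtb18, a transcriptional repressor at 179, 175, 176 and 135, a second probe set gave 0.39, so its direction depends on the probes.

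Wipf1, which binds the actin regulator WASP, read 208 to 303 in pituitary against 538 to 6691 and was most distant from spleen lymphocyte. Ankrd44 and Kat2b were named after their values were seen, to complete the 12. Ankrd44 stayed between 73.1 and 90.6, below the floor, with a difference of at least -2.17. The histone acetyltransferase Kat2b and the protein Tmem160 were lower by -1.48 and -1.33.

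**Figure D5:**
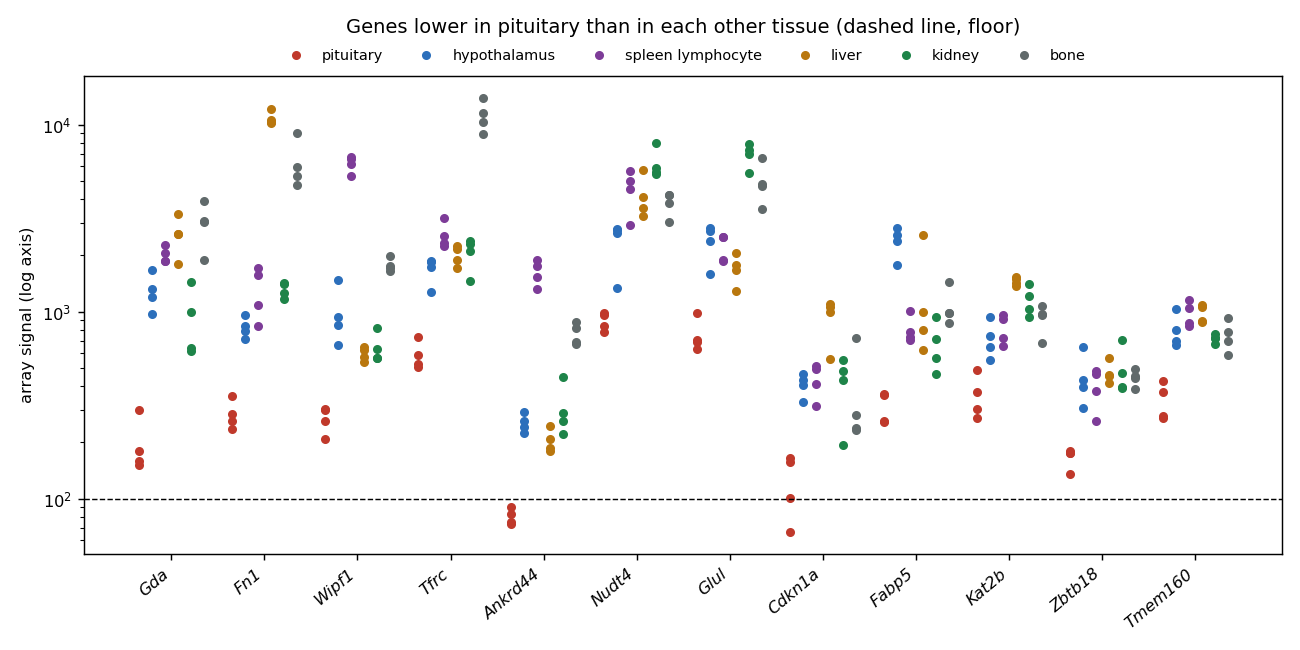
Array signal on a log axis for the 12 genes lower in pituitary than in each of the 5 other tissues, 1 point per array coloured by tissue, with a dashed line at the floor of 100. The red pituitary points lie below all others for each gene, most widely for Gda, at 151 to 298 against 615 to 3903.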

How the data were processed

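Total RNA of 6 tissues was pooled from 10 male rats per age and hybridised by the authors to 24 Affymetrix RAE230A arrays, 1 per tissue and age. The deposited values are MAS5.0 intensities, 1 linear signal per probe set, scaled by the authors to a target of 500, with no version of MAS5.0 stated in the sources used. Arrays of the adrenal gland, a tissue the study also sampled, are not analysed here.

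Of 15923 probe sets, 12783 carried 1 gene symbol, 312 several and 2771 none, and 57 were controls. For 1868 of 10411 genes with several probe sets, the one at 100 or more on the most arrays, then the brightest, was used. Signals were floored at 100, log2-transformed and fitted in limma with tissue as the factor over all 24 arrays (18 residual degrees of freedom), for 9682 genes at 100 on at least 4 arrays. Contrasts set pituitary against the mean of the 5 other tissue means and against each tissue, with Benjamini-Hochberg adjustment over all genes, an adjusted p of 0.05 and a 2-fold limit. P-values measure the spread between pools of different ages and not between rats, and groups floored on all arrays lower that spread. The number of arrays limits the precision.

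All tissues at 1 age were taken from the same 10 rats. Deviations of pituitary from its mean correlated with those of other tissues of the same age at -0.06 to 0.09 (median 0.01), and at -0.10 to 0.10 for different ages. Age as a block was an alternative, beside other floors, scalings, filters, probe set rules, priors, array weights, fold limits and fits without each tissue or array.

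Named genes were the 25 farthest above and the 10 farthest below each tissue, the 3 largest differences per tissue and direction, the 5 most variable over ages, the members of 4 pituitary lists and up to 4 members of each other list. Genes named for a count of 5 or fewer were added. The gene lists, their members and the rules were chosen with earlier results of these data known. In simulated data with the same 9682 genes, 45 of 50 genes raised by 1.5 on the log2 scale were called against each tissue. The same held for 47 of 50 lowered by 1.5 and for 0 of 9482 unchanged genes. Each simulated gene had a common mean in all tissues, and the shifted genes lay well above the floor. These counts therefore do not carry over to genes near the floor or to genes that differ among the other tissues. Models ran in limma 3.58.1 under R 4.3.3. Tables and plots were made in Python 3.11.15 (pandas 2.3.3, numpy 2.4.6, matplotlib 3.10.9).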

Additional observations from a re-analysis of the deposited data

Results flagged for a closer look

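For 6 of 69 named genes with a call, 1 of the 4 pituitary arrays lay apart from the others: its gap to the nearest array, as a share of the whole range on the log2 scale, passed Dixon's critical value for 4 samples. Chance flags about 1 in 20 groups. At 4 months, Agtr1b (492, gap share 0.881), Rd3 (525, 0.875) and Caly (2377, 0.873), a dopamine receptor-interacting protein, were lowest. At 10 months, Avpr1b was lowest (348, 0.923). At 24 months, Isl1 (329, 0.897) and Zbtb18 (135, 0.920) were lowest.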

How the results depend on the processing

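Of 393 counts of called genes under other settings, 366 stayed within 1.5 times those reported. Genes higher than the mean of the other tissues numbered 599 when the 20 other arrays formed 1 group, 2939 with no fold limit and 187 with a 4-fold limit, and lower genes 102, 2222 and 102. Genes higher than each tissue numbered 96 under median centring, 481 with no fold limit, 27 with a 4-fold limit and 544 without hypothalamus. Genes lower than each tissue numbered 20 with a floor of 50, 64 with no fold limit, 1 with a 4-fold limit, and 64, 25, 24 and 20 without hypothalamus, spleen lymphocyte, liver and bone. Without a fold limit and with a 4-fold limit, genes differing from hypothalamus numbered 3757 and 328, from spleen lymphocyte 5199 and 958, from liver 5531 and 1062, from kidney 4819 and 822 and from bone 4824 and 818. Age as a replicate block gave 983 higher and 726 lower than the mean, and 145 and 12 against each tissue. Leaving out 1 array gave 971 to 1004 higher and 716 to 745 lower than the mean, and 138 to 152 and 11 to 14 against each tissue, of which 134 to 146 and 11 to 12 were the genes reported. Of 3920 values of 92 named genes under other settings, 3876 kept direction and call, 38 lost the call, 5 gained one and 1 changed sign: Prlr, at 0.31 for the mean over all probe sets. The cause was not tested where a setting does not itself change the samples, probes or limits. Signals under the floor of 100 carry no order, which limits Pomc, Ghr and other genes below it in a tissue.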
